A study of Rattus norvegicus with 8 samples.

Results

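The genes described here make, lengthen and desaturate fatty acids, build sterols, assemble glycerides and phospholipids, and carry lipids across membranes. A list of 35 genes was fixed by name, and a gene was measured where the RefSeq accession of a probe matched its rat symbol. Of the 35 genes, 30 had such a probe, among 13903 genes with a matched probe on the Arraystar rat lncRNA array, a 1-colour Agilent array that also carries mRNA probes. Fasn, Srebf1, Insig1, Mvk and Abca3 had none. In order to compare lung tumor with normal lung, 3 tumors (lung tumor 1 to 3) and 3 matched pieces of normal lung (normal 1 to 3) were taken at week 95 from male F344 rats that had received NNK, a nitrosamine carcinogen of tobacco smoke. RNA from a blood clot of 1 control rat and 1 NNK-treated rat, also male F344 at week 95, was run on 2 further arrays. All 6 lung samples came from NNK-treated animals, so normal lung here is tissue of exposed rats and not lung of an untreated rat. The tissues were whole pieces, in which fewer cells of a type and less RNA per cell cannot be told apart. One label of the NNK blood sample describes it as lung cancer tissue, but its other labels name a blood clot, and it was treated as blood.

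The arrays stood apart from independent replicates in one respect. The 3 normal lung arrays differed from each other by 0.467 to 0.787 times the mean squared difference that the spread between repeat spots gives, and tumor 2 differed from tumor 3 by 0.466 times. They therefore agree within spot noise, the normal arrays count as 1 sample and tumors 2 and 3 as another, and no mean ± SD is given. The values of each array are given instead. Tumor 1 differed from tumors 2 and 3 by 3.03 and 3.36 times that noise. The p-values below measure the spread between these arrays, which may be technical. The normal arrays and tumor 1 were scanned together, tumors 2 and 3 were scanned together, and so were the 2 blood arrays. Of the mRNA spots above background, 4.07% to 7.93% on the normal arrays and 18.2% to 29.5% on the tumor arrays carried an outlier mark. Surfactant and other type 2 alveolar markers (8 of 8) were above background on the lung arrays, and all 5 red blood cell markers with a probe were above background in blood. Presence alone did not separate the tissues. Of the 8 type 2 markers, 5 were above background in control blood and 7 in NNK blood, and all 5 red blood cell markers were so in lung. Sums of markers are given in signal units normalized over all 8 arrays. Type 2 markers summed to 963000 to 1010000 signal units per normal array and 25000 in control blood. Red blood cell markers summed to 188000 to 199000 and 1370000.

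Cells make fatty acids from citrate, which ATP citrate lyase splits into acetyl-CoA, and acetyl-CoA carboxylase and fatty acid synthase then build the chain. The mevalonate pathway turns the same acetyl-CoA into isoprenoids, squalene and finally cholesterol, and the transcription factors SREBP-1 and SREBP-2 (genes Srebf1 and Srebf2) turn on many of these enzymes when cell sterol is low. In the lung, type 2 alveolar cells make much phosphatidylcholine for surfactant, and choline kinase (Chka) and the CTP transferase encoded by Pcyt1a lead into that phospholipid.

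To show the start regions of genes with higher signal in tumor, the RefSeq windows (assembly GRCr8, 250 bases before to 50 bases after the gene start, 5′ to 3′ on the gene's strand) of 4 sterol genes and of Chka follow. Capitals mark matches to the NF-Y box CCAAT and the GC box GGGCGG on either strand.
Dhcr7, chr1:208444184-208444483, plus strand: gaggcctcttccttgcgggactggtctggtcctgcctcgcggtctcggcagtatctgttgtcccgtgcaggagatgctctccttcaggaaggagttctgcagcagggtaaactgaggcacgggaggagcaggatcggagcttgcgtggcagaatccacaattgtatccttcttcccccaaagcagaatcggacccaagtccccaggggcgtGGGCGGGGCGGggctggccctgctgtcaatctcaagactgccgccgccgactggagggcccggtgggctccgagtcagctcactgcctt
Mvd, chr19:67414925-67415224, minus strand: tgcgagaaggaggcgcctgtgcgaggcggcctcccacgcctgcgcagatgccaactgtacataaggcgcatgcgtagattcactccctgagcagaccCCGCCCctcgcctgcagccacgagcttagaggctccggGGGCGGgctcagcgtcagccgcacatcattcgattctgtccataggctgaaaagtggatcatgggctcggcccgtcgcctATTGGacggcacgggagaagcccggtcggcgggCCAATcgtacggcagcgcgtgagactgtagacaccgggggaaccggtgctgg
Idi1, chr17:66547475-66547774, minus strand: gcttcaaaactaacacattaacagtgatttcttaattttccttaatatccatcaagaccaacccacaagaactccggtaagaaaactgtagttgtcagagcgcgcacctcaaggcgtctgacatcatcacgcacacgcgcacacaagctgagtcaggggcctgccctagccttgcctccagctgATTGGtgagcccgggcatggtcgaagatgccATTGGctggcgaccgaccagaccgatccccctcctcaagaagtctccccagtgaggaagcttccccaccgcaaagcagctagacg
Fdps, chr2:176804767-176805066, minus strand: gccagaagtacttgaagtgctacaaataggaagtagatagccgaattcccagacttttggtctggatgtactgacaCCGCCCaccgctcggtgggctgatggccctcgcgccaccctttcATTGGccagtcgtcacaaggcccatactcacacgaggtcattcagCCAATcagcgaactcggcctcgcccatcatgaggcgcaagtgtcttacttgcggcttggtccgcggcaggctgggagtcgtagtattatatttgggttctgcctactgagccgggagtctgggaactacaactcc
Chka, chr1:210505865-210506164, plus strand: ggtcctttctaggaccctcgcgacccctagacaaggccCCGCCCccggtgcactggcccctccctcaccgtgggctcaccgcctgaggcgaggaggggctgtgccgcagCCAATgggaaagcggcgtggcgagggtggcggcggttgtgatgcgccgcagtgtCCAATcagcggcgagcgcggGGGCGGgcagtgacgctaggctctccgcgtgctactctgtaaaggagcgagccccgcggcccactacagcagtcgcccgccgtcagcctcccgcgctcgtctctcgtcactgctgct
Of the 35 genes, 27 had a window. CCAAT lay in 18 of the 27 member windows (66.7%), against 37.7% of 27457 windows of all genes and 38.5% of the 6444 windows of genes tested in lung. GGGCGG also lay in 18 of the 27 (66.7%), against 34.9% of all windows and 54.4% of those of genes tested. Matches may share bases, as the pair in the Dhcr7 window does. The sterol regulatory element core TCACNCCAC, again on both strands, matched 1 member window, that of Pcyt1a, and 1.13% of all windows, and the E-box CACGTG matched 14.8% of member windows and 6.65% of all. These are letter matches, given as a description.

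Compared with normal lung tissues, sterol synthesis genes as a group had higher signal in lung tumor tissues. All 11 measured genes of the group had a higher mean in tumor, 10 of them past the adjusted p, beside 33.4% of mRNA probes higher at that threshold, and their median difference was 0.73 on the log2 scale. With the near-identical arrays counted once, normal lung is 1 sample, which allows no test of these genes. The adjusted p here rests on arrays that may be technical repeats. The gene with the largest difference of the 27 measured was Dhcr7, which carries out the last step of cholesterol synthesis. Of all 27 measured genes, 24 had a higher mean in tumor. Outside the sterol group, Chka, the cholesterol exporter Abca1 and the dim Fads2 rose at least 2-fold and passed the adjusted p. Acly, Fads1, Dgat2 and Pcyt1a passed the adjusted p with smaller rises. Scd, Elovl1, Elovl6, Agpat2, Srebf2, Abcg1, Dgat1 and the near-background Acaca and Gpam did not pass the test.

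A gene was called at a fold change of 2 or more with a Benjamini-Hochberg adjusted p of 0.05 or less in limma, fitted to the log2 signals of all 12471 probes that passed the filter, with the group as the only term. Of the 30 genes, 27 passed the filter on dim probes. Acacb, Elovl5 and Lpin1 did not. In the fit without outlier-marked spots, 20 genes could be tested, and 4 were called higher and 0 lower, beside 11.5% of 8637 mRNA probes called higher and 16.8% lower. At the adjusted p alone, 12 of the 20 were higher and 0 lower, beside 32.6% and 33.4% of mRNA probes. The other 7 genes (Fdft1, Sqle, Lss, Sc5d, Dgat1, Pcyt1a, Abca1) had too few unmarked spots and were taken from a limma fit of the whole table with those spots kept. With them, 5 of 27 were called higher and 0 lower, and 17 of 27 were higher and 0 lower at the adjusted p alone. In that fit 11.7% of 11432 mRNA probes were called higher and 15.3% lower, and 33.4% were higher and 32.8% lower at the adjusted p alone. At an unadjusted p under 0.05, limma and the methods' t-test also gave 0 of 20 genes lower. The median difference of the 20 genes was 0.58 and that of all mRNA probes in the same fit was -0.001.

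**Figure D1:**
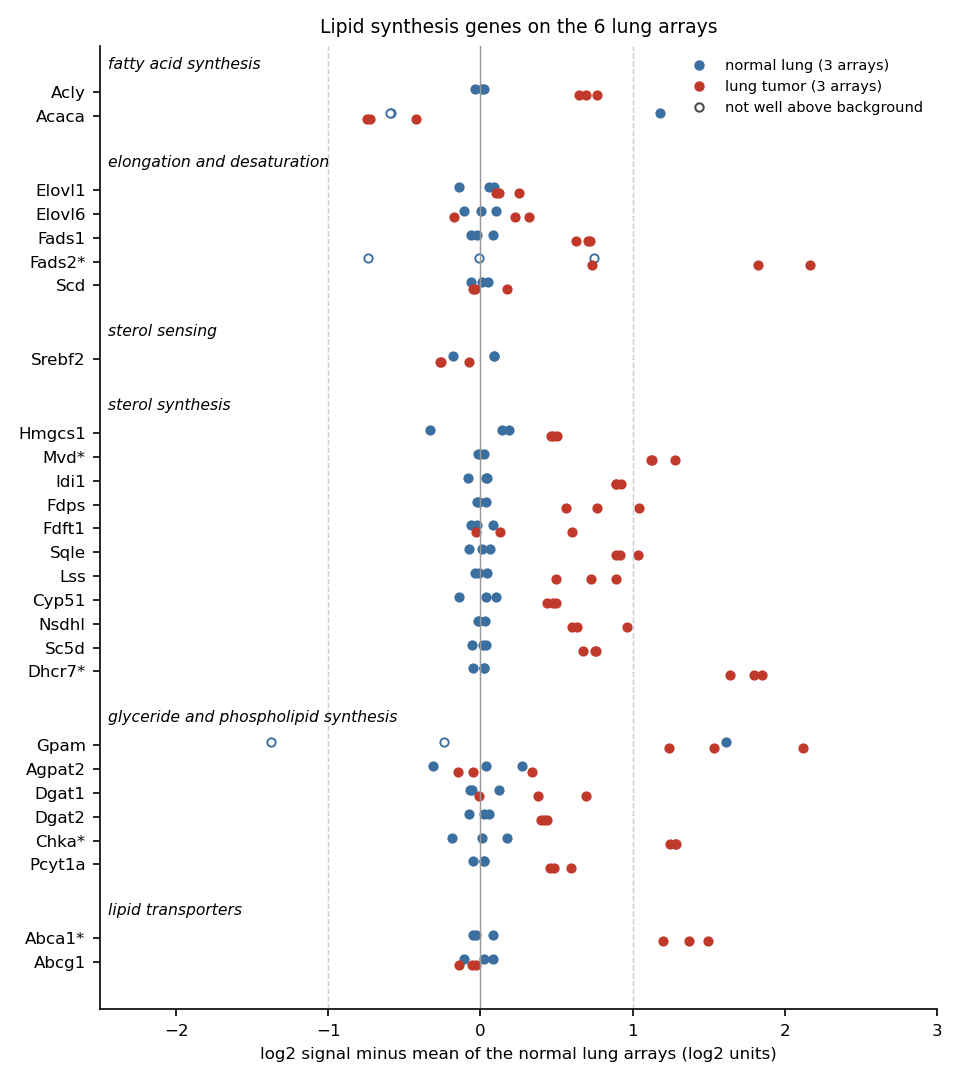
Log2 signal of each gene on each of the 6 lung arrays, minus the mean of the 3 normal lung arrays, by role. Blue points are normal lung and red points lung tumor, open points are arrays where the probe was not well above background, dashed lines mark a 2-fold difference, and an asterisk marks the called genes. Spots with an outlier mark are included. The 3 tumor points of Dhcr7, Mvd, Chka and Abca1 all lie beyond the 2-fold line, and those of Scd and Abcg1 overlap the normal points.

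The sterol group is described from its first step to its last. Hmgcs1, which makes the HMG-CoA that feeds the pathway, had log2 signals of 9.91, 9.86 and 9.39 on normal arrays 1, 2 and 3 and of 10.20, 10.22 and 10.18 on the tumor arrays. The tumor arrays lay together above all normal arrays, of which normal 3 was the lowest. The difference was 0.48 (standard error 0.151, limma adjusted p = 0.0353).

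Mvd (NM_031062.1), the decarboxylase that yields isopentenyl diphosphate, had 10.40, 10.36 and 10.38 on the normal arrays and 11.66, 11.50 and 11.51 on the tumor arrays. The groups did not overlap, and each group was tight. The difference of 1.18 (standard error 0.0641), a 2.26-fold higher signal, had a limma adjusted p of 4.83e-05. Idi1, which isomerises that product, went from 13.77, 13.88 and 13.89 to 14.77, 14.74 and 14.74, a 1.87-fold difference that stayed just under the 2-fold threshold (limma adjusted p = 8.59e-05). Fdps, the enzyme that makes farnesyl diphosphate, had 13.70, 13.71 and 13.76 on the normal arrays and 14.76, 14.49 and 14.28 on the tumor arrays. Tumor 1 was the highest here, and the difference was 0.79 (limma adjusted p = 0.00336).

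Fdft1, the squalene synthase, was the sterol gene that did not pass the test. Its normal arrays gave 9.59, 9.48 and 9.44, and its tumor arrays 10.10, 9.47 and 9.63. Only tumor 1 lay clearly above the normal arrays, and the groups overlapped (difference 0.23, limma adjusted p = 0.274, marked spots kept).

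The next enzyme, squalene epoxidase (Sqle), a rate-controlling step of the later pathway, had 13.34, 13.39 and 13.26 on the normal arrays. Its tumor arrays gave 14.37, 14.24 and 14.22. The groups lay apart, with a 1.93-fold difference (limma adjusted p = 0.000121, marked spots kept). Lss, which closes the sterol ring as lanosterol, had 9.75, 9.66 and 9.69 in normal lung and 10.59, 10.20 and 10.43 in tumor, a difference of 0.71 (limma adjusted p = 0.00259, marked spots kept).

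The next 3 genes act on lanosterol and its products. Cyp51, the demethylase, differed by 0.46 (limma adjusted p = 0.0138), Nsdhl, a dehydrogenase that acts in the same demethylation, by 0.73 (limma adjusted p = 0.00235), and Sc5d, the desaturase before the last reduction, by 0.73 (limma adjusted p = 0.000162, marked spots kept). In all 3 genes the tumor arrays lay above the normal arrays.

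Dhcr7 (NM_022389.2), the reductase of the last step, stood at 11.78, 11.86 and 11.85 on the normal arrays and at 13.68, 13.47 and 13.63 on the tumor arrays. Every tumor array lay more than 1 log2 unit above every normal array. The difference was 1.76 (standard error 0.0736), a 3.39-fold higher signal, with a limma adjusted p of 2.02e-05. With the near-identical arrays counted once, the difference of Dhcr7 was 1.78. That count leaves 1 normal sample, too few to test Dhcr7, Mvd or Idi1.

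The signal of Srebf2, the gene of the transcription factor SREBP-2, did not rise with the sterol enzymes. Its signals were 14.45, 14.71 and 14.71 in normal lung and 14.55, 14.36 and 14.36 in tumor, where the last value is a marked spot that the fit left out. The groups overlapped, and the difference was -0.17 (limma adjusted p = 0.284).

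**Figure D2:**
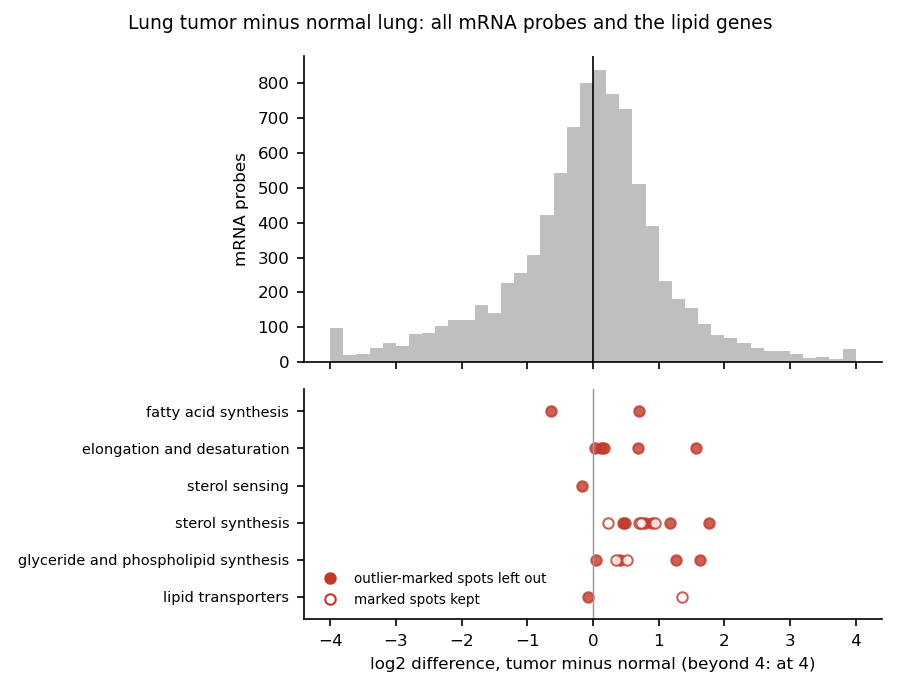
Top, number of mRNA probes (of 8637 tested) by log2 difference, lung tumor minus normal lung, with the median as a black line. Bottom, the lipid genes by role on the same axis, filled where outlier-marked spots were left out and open where they were kept. The 11 sterol synthesis genes all lie to the right of 0. So do the 5 elongation and desaturation genes and the 6 glyceride and phospholipid genes. The 2 fatty acid synthesis genes, Acly and the near-background Acaca, and the 2 transporter genes fall on both sides, and Srebf2 lies to the left.

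Fatty acid genes gave a mixed picture. Acly, the ATP citrate lyase, has 2 probes that ran alike. The brighter one read 16.02, 16.07 and 16.08 in normal lung and 16.82, 16.75 and 16.70 in tumor, a 1.63-fold difference (limma adjusted p = 0.000214). Acaca, the acetyl-CoA carboxylase of fatty acid synthesis, was near background, with 1 of 3 normal arrays and 3 of 3 tumor arrays well above it. Its signals of 3.98, 3.97 and 5.75 in normal lung and 3.82, 4.14 and 3.84 in tumor overlapped (difference -0.63, limma adjusted p = 0.325). Normal 3 alone was high.

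Among the enzymes that lengthen and desaturate chains, Fads1, the delta-5 desaturase, had 15.70, 15.81 and 15.66 in normal lung and 16.44, 16.43 and 16.35 in tumor, a 1.61-fold difference (limma adjusted p = 0.00038). Scd, the stearoyl-CoA desaturase, was among the brightest genes on the lung arrays, and its signals did not separate the groups. They were 16.72, 16.61 and 16.68 in normal lung and 16.84, 16.63 and 16.62 in tumor, a difference of 0.03 with a standard error of 0.0821 (limma adjusted p = 0.774). The elongases Elovl1 and Elovl6 differed by 0.16 (limma adjusted p = 0.156) and 0.13 (limma adjusted p = 0.479).

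Fads2, the delta-6 desaturase, passed both thresholds but rests on dim spots. Its normal arrays read 3.23, 2.48 and 1.75 and none was well above background, while its tumor arrays read 4.31, 3.22 and 4.65 and all 3 were. Normal 1 lay above tumor 2, so the groups overlapped. With the normal arrays set at the lowest signal above background, a mean of 3.85, the tumor mean was 1.16-fold higher. Tumor 2 lay below that level. The limma adjusted p was 0.0441. The adjusted p rose to 0.102 without normal 2, to 0.11 without normal 3, to 0.0715 with the replicate number as a block and to 0.123 with the scan group as a block.

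Of the glyceride and phospholipid genes, Chka (NM_017127.1), the choline kinase, had 14.07, 13.87 and 14.24 on the normal arrays and 15.34, 15.34 and 15.30 on the tumor arrays. The tumor arrays nearly coincided, more than 1 log2 unit above the highest normal array. The difference was 1.27 (standard error 0.101), or 2.41-fold, with a limma adjusted p of 0.000202 over arrays that may be technical repeats. Pcyt1a, the CTP transferase of the next step, rose by less, from 10.32, 10.32 and 10.24 to 10.89, 10.78 and 10.75 (1.43-fold, limma adjusted p = 0.000944, marked spots kept).

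Dgat2, one of the enzymes that complete triglycerides, also rose, with a difference of 0.42 (limma adjusted p = 0.00173). Its counterpart Dgat1 had 11.15, 10.97 and 10.96 in normal lung and 11.72, 11.41 and 11.02 in tumor, so that tumor 3 lay among the normal arrays (difference 0.36, limma adjusted p = 0.144, marked spots kept). Agpat2, an acyltransferase of phosphatidic acid synthesis, differed by 0.05 (limma adjusted p = 0.84).

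Gpam, the mitochondrial acyltransferase that starts glyceride synthesis, was well above background on 1 normal array and 3 tumor arrays. Its signals of 4.26, 2.41 and 1.27 in normal lung and 4.76, 4.18 and 3.88 in tumor overlapped, and the difference of 1.63 did not pass (limma adjusted p = 0.12). Without normal 1 it was 2.46 with a limma adjusted p of 0.0117.

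The cholesterol and phospholipid exporters parted. Abca1 (NM_178095.2), which loads lipid onto apolipoprotein A-I, had 9.36, 9.34 and 9.47 on the normal arrays and 10.88, 10.76 and 10.59 on the tumor arrays, the last 2 from marked spots. The groups lay more than 1 log2 unit apart. The difference was 1.35 (standard error 0.0934), or 2.55-fold, with a limma adjusted p of 9.99e-05. Abcg1 was near the top of the signal range and overlapped, at 17.42, 17.36 and 17.22 in normal lung and 17.30, 17.19 and 17.28 in tumor (difference -0.08, limma adjusted p = 0.402).

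Within the scan that held the normal arrays and tumor 1, the differences of the called genes were as large or larger. With the scan group as a block, which leaves that comparison, Dhcr7 differed by 1.85, Mvd by 1.28, Chka by 1.28 and Abca1 by 1.49, and Hmgcs1 by 0.48 with a limma adjusted p of 0.146.

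Markers of other cells moved between the same groups. Their sums are on the scale normalized over all 8 arrays, and the tests on that of the 6 lung arrays. Type 1 alveolar markers summed to 1250000 to 1270000 signal units per normal array and 212000 to 233000 per tumor array, with 5 of 6 lower and 1 higher at the adjusted p, and the 4 endothelial genes with a probe summed to 158000 to 168000 and 19300 to 19400, with 3 of 3 tested lower and Cdh5 not above background on any lung array. Type 2 alveolar markers summed to 963000 to 1010000 and 1130000 to 1150000, with 5 of 8 higher and 2 lower. The 7 macrophage genes with a probe summed to 97900 to 106000 and 107000 to 127000, with 2 of 5 tested higher, 2 lower, and Marco and Cd163 not above background on any lung array. Adipocyte markers summed to 13100 to 13800 and 8550 to 8910, with 2 of 5 tested higher, 1 lower and Lep not above background. In that list Lipe fell by 3.14 on the log2 scale, whereas Adipoq rose by 5.27 (limma adjusted p = 2.33e-06). Proliferation markers summed to 51700 to 54400 and 64800 to 71500, with 3 of 3 tested higher. The 6 liver-type genes tested were all lower, from sums of 12500 to 13000 to 1020 to 1930. Red blood cell genes summed to 188000 to 199000 and 98300 to 108000, with 5 of 5 lower at the adjusted p, and 3 of 5 neutrophil, 2 of 5 T cell and 3 of 4 platelet genes tested were lower, with 1 platelet gene higher. The part of these cells in the lipid gene differences was not tested.

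A further 70 genes of the same pathways were read from the same fits. Of 53 with a value, 11 were called higher and 3 lower, beside 11.7% and 15.3% of mRNA probes with marked spots kept, and the median difference was 0.28. In the fit without marked spots alone, 9 of 35 were called higher and 2 lower, beside 11.5% and 16.8%. The largest difference was that of Slc25a1, the mitochondrial citrate exporter that supplies Acly, which was 3.67 log2 units higher in tumor (limma adjusted p = 5.29e-06). Me1, the malic enzyme that yields NADPH for fatty acid synthesis, rose by 2.64, and Soat1, which esterifies cholesterol, rose by 2.98 with 1 of 3 normal arrays above background. Of sterol enzymes, Hsd17b7 rose by 1.48. Thrsp, a lipogenic nuclear protein, rose by 1.67, and the phospholipid enzymes Lpcat1 and Pemt rose by 1.41 and 1.29. Mogat2, a monoacylglycerol acyltransferase, fell by 2.61 and Acsl6, an acyl-CoA synthetase, fell by 1.77.

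In blood, with 1 array per group, the comparison of NNK with control has no replicate and no test, and a 2-fold difference is given as a description. Of 22 genes with unmarked signal above background on at least 1 of the 2 arrays, 8 were at least 2-fold higher in NNK blood and 2 at least 2-fold lower, beside 26.0% of 10107 mRNA probes higher and 17.8% lower. With each array scaled to its 75th percentile the split was 7 higher and 5 lower, beside 2512 mRNA probes higher and 2512 lower. With normexp background correction it was 4 higher and 1 lower, beside 1226 and 630 mRNA probes. Of the 22 genes 10 were sterol synthesis genes, of which 5 were at least 2-fold higher and 5 were within 2-fold. Both counts of higher genes hold Sqle and Dhcr7, which were not above background in control blood. The bound for Dhcr7 was 1.27-fold, under the 2-fold line. The control array was the dimmer one before normalization, with a 75th percentile of 95.36 units against 205.8 on the NNK array.

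Mvd had a log2 signal of 5.48 in control blood and 7.56 in NNK blood, a difference of 2.08. Sc5d went from 4.85 to 6.83 and Cyp51 from 6.17 to 7.87. Sqle read 3.02, which was not above background, and 5.84, so that NNK blood was at least 2.93-fold higher. Dhcr7 read 2.65, likewise not above background, and 4.63, or at least 1.27-fold higher. These 5 genes lay at low signal in blood, and the first step of the pathway, Hmgcs1, was bright and nearly level at 13.07 and 12.92.

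The other genes higher in NNK blood were Chka, at 5.62 and 7.42, Dgat2, at 10.20 and 11.61, and Srebf2, at 7.49 and 8.64. Fads1 was lower in NNK blood, at 10.04 in the control and 7.76, and so was Pcyt1a, at 7.30 and 5.55. Idi1 differed by 0.44, Nsdhl by 0.66 and Fdps by -0.88, and Fdft1 read 6.43 and 6.45. Elovl5, Elovl6, Fads2, Lss, Gpam, Agpat2 and Abca1 were above background on neither array, and Lpin1, with a marked control spot, read 11.45 and 10.65.

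**Figure D3:**
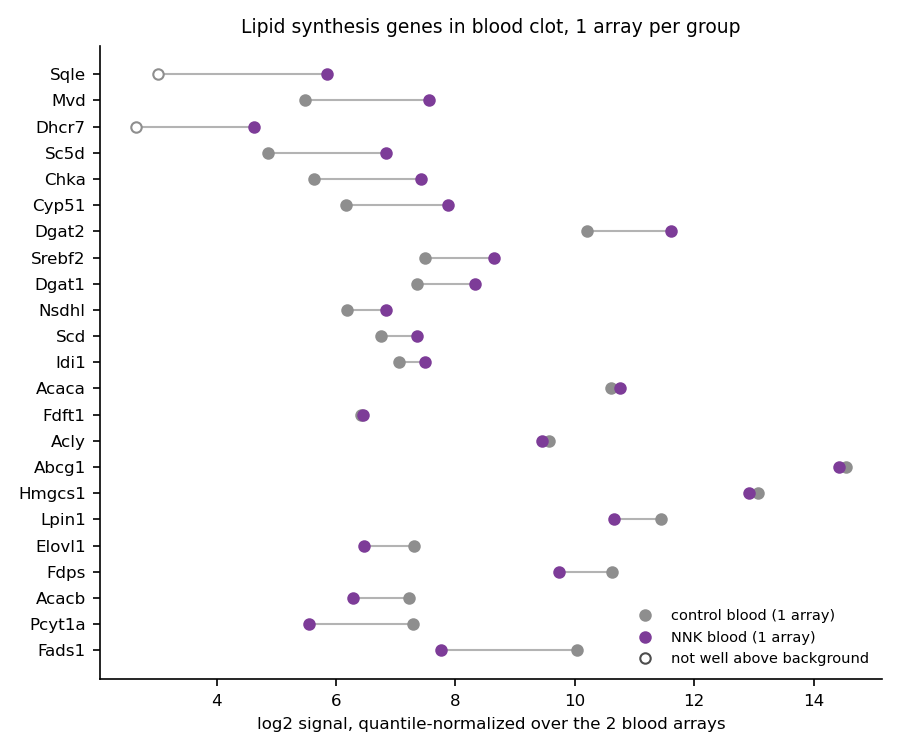
Log2 signal of each gene in the blood clot of the control rat (grey) and the NNK-treated rat (purple), 1 array each, sorted by difference. Open points were not well above background. Sqle, Mvd, Dhcr7 and Sc5d have the longest shift to the right and Fads1 the longest to the left.

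Markers of blood cells differed between these 2 arrays as well. The 5 neutrophil genes with a probe summed to 58000 signal units in control blood and 156000 in NNK blood, and the 4 platelet genes to 260000 and 177000. Red blood cell markers summed to 1370000 and 1400000. The 7 macrophage genes summed to 26900 and 40700. The 5 T cell genes summed to 74900 and 80600. Normalized over the 2 blood arrays, 3 of 5 were at least 2-fold higher. The brightest T cell genes, Cd2 and Cd3d, differed by -0.54 and -0.26 log2 units on that 2-array scale. The 4 proliferation genes summed to 9000 and 17800, with 2 of 4 at least 2-fold higher. The 6 adipocyte genes summed to 4820 and 14300, with Cfd at 8.89 and 11.07 on the log2 scale. Adipoq, not above background on the control array, differed by 1.89, whereas Lep differed by -1.25, Lipe by -0.86 and Fabp4 by -0.76. Their part in the lipid gene differences was not tested.

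Across all 8 arrays, normalized together, 16 of the 30 genes had higher signal on every lung array than on either blood array, 5 had higher signal on both blood arrays, and 9 overlapped. Tissue and scan group cannot be told apart here, since the blood arrays were scanned on their own. The 5 genes brighter in blood were Hmgcs1, Acaca, Acacb, Lpin1 and Elovl1. Lpin1, a phosphatidic acid phosphatase, had 1.58 to 4.31 on the lung arrays and 13.44 to 14.02 on the blood arrays. Acaca had 3.73 to 5.52 and 13.40 to 13.53, and Hmgcs1 had 8.71 to 9.44 and 14.98 to 15.08. Acacb, the carboxylase that regulates fatty acid oxidation, was not above background on any lung array, with 1.40 to 3.00, and lay at 8.00 to 9.65 in blood.

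Hmgcs1 was the only one of the 11 sterol synthesis genes brighter on both blood arrays. Mvd and Fdps overlapped on the scale normalized together, and the other 8 were brighter on every lung array. Before normalization Mvd had 1256 to 3220 units in lung and 28.25 and 273.8 in blood. Fdps had 13790 to 27720 in lung and 1340 and 1070 in blood, so that neither overlapped in those units. Dhcr7 had 10.83 to 12.69 on the lung arrays and 2.81 to 5.22 on the blood arrays, Sqle 12.26 to 13.44 and 3.22 to 7.19, and Lss 8.95 to 9.76 and 1.54 to 4.11. Scd had 16.11 to 16.39 in lung and 8.88 to 9.89 in blood. For each of these 4 genes the lowest lung array lay above the highest blood array.

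**Figure D4:**
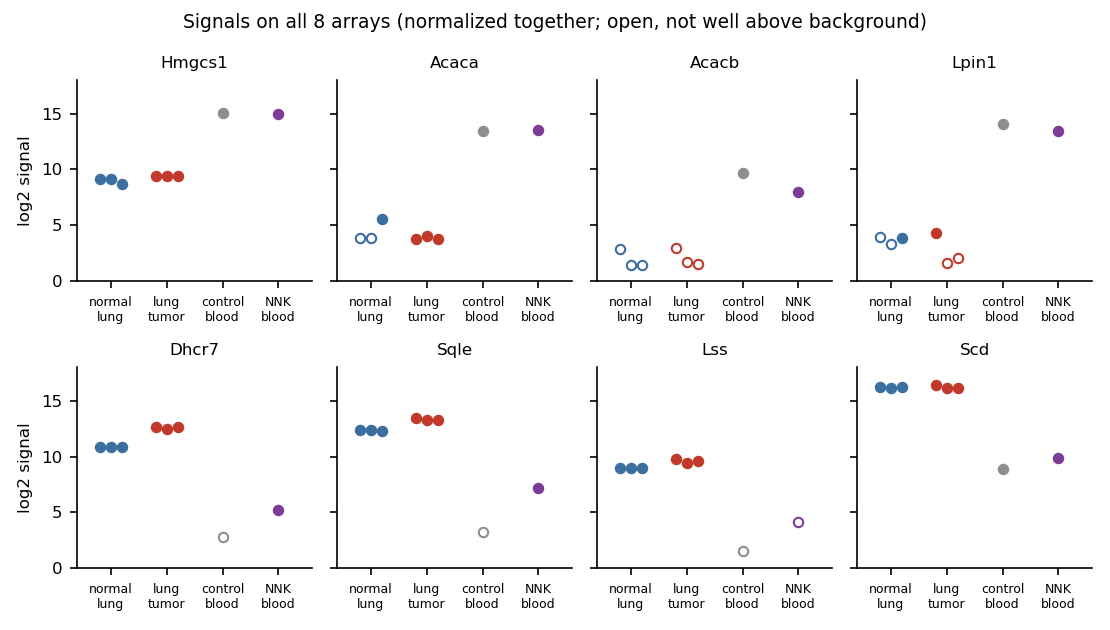
Log2 signal of 8 genes on all 8 arrays (3 normal lung, 3 lung tumor, 1 control blood, 1 NNK blood), 1 point per array, normalized together, with open points not well above background. Hmgcs1, Acaca, Acacb and Lpin1 are brighter on the blood arrays, and Dhcr7, Sqle, Lss and Scd on the lung arrays.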

How the data were processed

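RNA was measured on 1-colour arrays, for which the authors deposited per-spot intensities from Agilent Feature Extraction 10.5.1.1 (background-subtracted processed signal) and log2 values, quantile-normalized in GeneSpring over the 8 arrays. Groups came from the labels. The genes and lists were chosen with earlier results of these data known. Here the processed signals were put on the log2 scale and quantile-normalized separately for the 6 lung and the 2 blood arrays. Marked outlier spots were dropped, and repeat spots averaged. A probe was kept if well above background (over 50% of spots) on 3 or more lung arrays (1 blood array), and tested with lmFit and eBayes of limma 3.58.1 in R 4.3.3, with Benjamini-Hochberg adjustment over all probes. A gene with several probes took the brightest. Of 15323 mRNA probes, 14274 (93.2%) matched a RefSeq symbol of GRCr8, which also gave the promoter windows. Genes outside the list were named where called, at most 10 by size. A bound sets a dim array at the lower limit of signal above background. Alternatives were another normalization, background correction, floor, filter, test, block, and arrays left out or counted once; combinations with marked spots kept were chosen after seeing the data. Tumors were labelled as matched. Deviations of same-numbered normal and tumor arrays correlated at 0.143, -0.0406 and 0.16 over 11359 probes, and those of normal 3 and tumor 2 at 0.14. The normal arrays agree within spot noise, so these values cannot show whether equal numbers are pairs. The numbers were not used as pairs. The steps were tested on simulated data. Precision is limited by the number of arrays.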

Additional observations from a re-analysis of the deposited data

How the results depend on the processing

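Directions held for the 5 called lung genes and the 10 genes past 2-fold in blood under each alternative run. Counting the near-identical arrays once leaves 1 normal sample, which limma takes to vary like the tumors. No counts or p-values from that design are given. Normexp gave 1 gene lower at the adjusted p (Abcg1), with or without marked spots, as did the 75th percentile shift with marked spots kept (Srebf2), and leaving out single arrays with marked spots kept gave 0 to 1. Pathway genes called lower, 2 in the report, were 1 with normexp, no filter, the methods' t-test, its paired form and the scan group as a block, and 1 to 4 when single arrays were left out. Leaving out single arrays gave 3 to 5 genes called higher, 9 to 13 past the adjusted p and 6 to 8 pathway genes called higher, and with marked spots kept 4 to 6 and 15 to 18. In blood, genes at least 2-fold lower, 2 in the report, were 5 with the 75th percentile shift, 4 with the authors' values, with no filter and with normalization over 8 arrays, and 1 with normexp, which gave 4 higher. Signs turned for genes that were never called. Scd was -0.084 with normexp and -0.045 to 0.064 when single arrays were left out, Agpat2 was -0.108 to 0.184 when single arrays were left out, and Abcg1 was 0.048 with the 75th percentile shift. The cause was not tested. With the replicate block, 3 genes were called higher and 11 were past the adjusted p, against 4 and 12. The authors' values and normalization over 8 arrays put Idi1 at 1.001 and 1.003, past the 2-fold threshold.

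Dim probes limit Fads2, Gpam and Acaca in lung and Sqle and Dhcr7 in control blood. With normexp the difference of Fads2 was 0.16. Over all lung genes and alternatives, 457 values kept their sign and side of the threshold, 12 fell below it, 5 rose past it and 5 changed sign.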
